A study of Rattus norvegicus with 4 samples.

Results

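The 10 genes described here encode channels, and close channel partners, that are known or proposed to open when a membrane is stretched or pressed: Piezo1 and Piezo2, the transient receptor potential (Trp) channel genes Trpv2, Trpv4, Trpc1 and Trpc6, the polycystin genes Pkd1 and Pkd2, and Tmem63a and Tmem63b. They were picked by symbol out of 32883 genes in single-nucleus RNA-seq libraries. The nuclei came from snap-frozen fat of male Dahl salt-sensitive rats (strain SS/HsdMcwiCrl, 16 weeks old, untreated), a strain used as a model of salt-sensitive hypertension. There were 2 libraries of thoracic aorta perivascular adipose tissue (taPVAT), the fat sheath around the vessel, and 2 of subscapular brown adipose tissue (BAT). The series' design names 2 rats per tissue, and neither it nor the labels say whether the same rats gave both tissues or which rat gave which library. The p-values of the fits between tissues therefore measure the spread between 2 libraries of a tissue. Those of the joint fit of classes, which holds library as a term, measure the spread of class sums left within libraries.

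Piezo channels are large trimers that let calcium into a cell when its membrane is under tension. Piezo1 is best known in endothelium, where it senses flow, and Piezo2 in sensory neurons, where it underlies touch and the sense of body position. Trp and polycystin channels are mostly opened by several signals, and how directly force acts on some of them is debated, whereas the TMEM63 proteins are relatives of the osmosensitive OSCA channels of plants. Fat around an artery is stretched with every pulse, which makes the place of such channels among its cells a natural question.

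The libraries held 63654436 to 158140959 UMIs (unique molecular identifiers, each 1 captured RNA molecule) in 14765 to 44637 barcodes, against a targeted recovery of 10000 nuclei each, and mitochondrial RNA made up a median of 7.28% to 10.7% of a nucleus's UMIs. Before filtering, between 0.853% and 1.29% of the smaller library's barcodes were shared by any pair of libraries. After filtering, 100716 nuclei remained. The libraries stood apart by replicate number: in each of 15 Leiden clusters named adipocyte, at least 95.1% of nuclei came from libraries of a single number, replicate 1 in 8 clusters and replicate 2 in 7. Within a number, large adipocyte clusters also leaned to a tissue, such as one with 10635 taPVAT and 115 BAT nuclei and one with 769 and 10275 in replicate 1. What a number shares is not stated, so tissue differences are also given within each number where results turn on them. Nuclei were put into classes by marker genes that include none of the 10; each class is named for its markers, so "fibroblast nuclei" means nuclei with fibroblast-like marker counts. Adipocyte nuclei, those with adipocyte markers and no excess of another class's, made up 70.4% to 73.8% of each library. Their median mitochondrial share (6.28% to 10.0%) lay below that of every other tested class in each library. In vascular endothelial nuclei, for example, it was 13.3% to 17.2%, so class differences below also set unlike mitochondrial shares against each other. Ucp1, the heat-producing uncoupling protein that defines brown fat, stood in adipocyte nuclei at 946 and 460 CPM (UMIs of the gene per 1000000 UMIs of that class) in taPVAT and at 1533 and 662 CPM in BAT.

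Adipocyte RNA was abundant in every other class, and this bears on each level below. The median of 11 adipocyte marker genes in fibroblast nuclei was 66.7% and 39.4% of its level in adipocyte nuclei in the taPVAT libraries, and 60.9% and 68.1% in the BAT libraries. Over all other classes with at least 20 nuclei, that median ran from 25.9% to 84.7%. A channel gene whose percent of the adipocyte level lay at or below that of the markers was therefore read as background. Of 360 combinations of gene, class and library, 257 lay above the median marker, 280 above the lowest marker and 195 above the highest. The share of all genes above these lines was not computed, so these counts are no result about the channel genes. They include values on very few UMIs, such as 1 Piezo2 UMI in Schwann cell nuclei of taPVAT replicate 1. UMIs were counted at the 3′ end, so levels are compared between classes and libraries, not between genes.

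Against adipocyte nuclei, 40 of 80 gene and class combinations differed in edgeR's quasi-likelihood test with Benjamini-Hochberg adjustment over 11036 genes (adjusted p under 0.05): 24 were higher and 16 lower. DESeq2 with its size factors, which moved the differences up by a median of 0.143 to 0.245 (log2) depending on class, called 24 higher and 9 lower. Fibroblast nuclei had 4 channel genes higher (24.5% of all tested genes were) and 3 lower (22.3%). Vascular endothelial nuclei likewise had 4 higher (23.7% of all genes) and 3 lower (21.8%). Pericyte nuclei had 5 higher (17.9%) and 1 lower (17.7%), and smooth muscle nuclei had 4 higher (13.9%) and 1 lower (14%). Myeloid nuclei had 4 higher (16%) and 3 lower (15.2%). T or NK lymphocyte nuclei had 1 higher (13%) and 2 lower (12.6%), Schwann cell nuclei 2 higher (12.5%) and 2 lower (14%), and B lymphocyte nuclei 0 higher (7.25%) and 1 lower (10.7%). Read against these background shares on 10 genes, higher calls in pericyte, smooth muscle and myeloid nuclei lay furthest above the share of all genes, and lower calls in pericyte and smooth muscle nuclei did not exceed it.

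**Figure D1:**
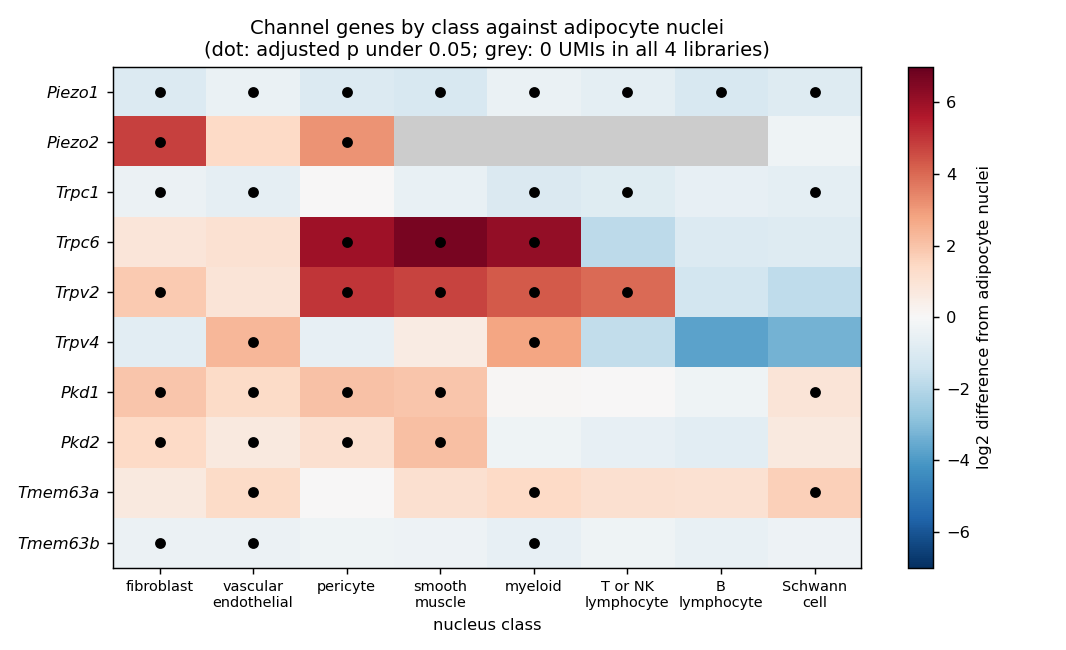
Log2 difference of each channel gene (rows) in each nucleus class (columns) from adipocyte nuclei of the same libraries, both tissues averaged; a dot marks adjusted p under 0.05 and grey marks the 4 classes with 0 Piezo2 UMIs. Differences run from -3.76 to 6.66, and Piezo1 is lower than in adipocyte nuclei in all 8 classes.

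Piezo1, the flow-sensing channel of endothelium, was most concentrated in adipocyte nuclei. Its level there was 484 and 359 CPM in the taPVAT libraries and 539 and 332 CPM in the BAT libraries. In vascular endothelial nuclei it was 358 and 323 CPM in taPVAT and 362 and 296 CPM in BAT. The endothelial level thus lay below the adipocyte level in all 4 libraries. Adipocyte nuclei made up 70.4% to 73.8% of nuclei and held 74.6% to 82.4% of all Piezo1 UMIs. In BAT replicate 1, where that Piezo1 share was highest, they held 94420008 of 121201784 UMIs of all genes. Piezo1 was lower than in adipocyte nuclei in all 8 classes tested, from -1.12 ± 0.17 (log2, SE; adjusted p = 5.47e-06, edgeR) in smooth muscle nuclei to -0.45 ± 0.16 (adjusted p = 0.0277) in myeloid nuclei. In vascular endothelial nuclei the difference was -0.47 ± 0.15 (adjusted p = 0.0112). Calls in fibroblast (-0.97 ± 0.15), pericyte (-0.94 ± 0.15), smooth muscle, B lymphocyte (-1.10 ± 0.19) and Schwann cell (-0.88 ± 0.17) nuclei held under every alternative in which those classes could be fitted. Those in vascular endothelial and myeloid nuclei were lost without BAT replicate 1 (-0.41 and -0.54) or without BAT replicate 2 (-0.51 and -0.41) and with DESeq2 (-0.32 and -0.28) or at least 1000 genes per nucleus (-0.35 and -0.34), and that in T or NK lymphocyte nuclei (-0.69 ± 0.16) without BAT replicate 1 (-0.64).

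The Piezo1 level in other classes was close to what adipocyte markers showed there. In pericyte nuclei Piezo1 stood at 64.8% and 45.8% of its adipocyte level in taPVAT, where the median marker stood at 69.4% and 56.4%. In BAT pericyte nuclei it stood at 48.2% and 67.2%, again below the markers at 63.0% and 71.7%. Piezo1 was above the median marker in 0 of 4 libraries in pericyte and B lymphocyte nuclei and in 2 of 4 in fibroblast nuclei, and was above the highest marker in no library of any of the 8 classes. Vascular endothelial nuclei split by replicate number, with both replicate 1 libraries just below the median marker and both replicate 2 libraries above it. Piezo1 reached 74.0% and 90.0% of the adipocyte level in taPVAT against 75.5% and 64.9% for the markers. In BAT it reached 67.3% and 89.3% against 67.6% and 71.6%. In myeloid nuclei it exceeded the median marker in 3 of 4 libraries, the widest gap being 90.6% against 63.3% in taPVAT replicate 2. By the rule above, Piezo1 outside adipocyte nuclei was not separable from background in pericyte and B lymphocyte nuclei, and in the other 6 classes tested it passed the median marker in 1 to 3 of 4 libraries. Mesothelial nuclei, numerous enough to read in taPVAT alone, passed it in 2 of 2 libraries (70.1% and 59.7% of the adipocyte level).

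**Figure D2:**
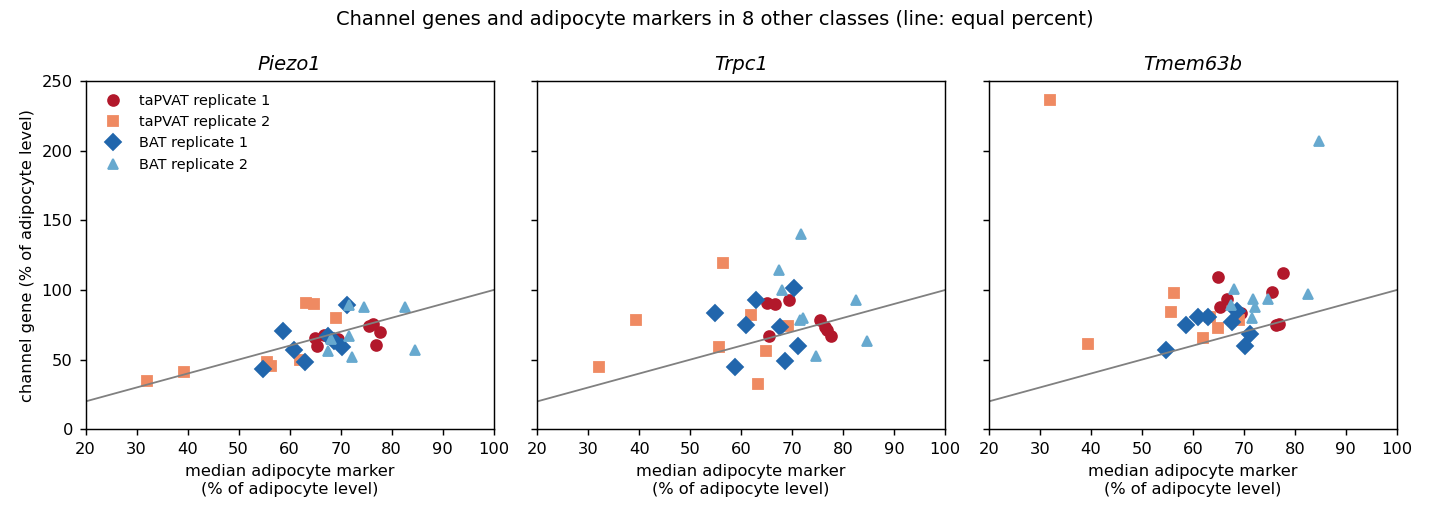
Each point is 1 of 8 classes in 1 library: the level of Piezo1, Trpc1 or Tmem63b as percent of its adipocyte level (vertical) against the median adipocyte marker in the same nuclei (horizontal); the line marks equal percents. Piezo1 points lie on both sides of the line, between 34.4% and 90.6%, and several Trpc1 and Tmem63b points lie above it.

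The genes whose level ran most like that of Piezo1 over 40 class and library sums were Arhgef37 (Pearson r = 0.87 on log2(CPM + 1)), Slc36a2 (0.87), Rin2 (0.86), Adck1 (0.85) and Adipor2 (0.83), among 10461 genes. Adipor2 encodes an adiponectin receptor and Slc36a2 an amino acid transporter known from brown fat. These values describe the sums, which share libraries and background RNA, and carry no test.

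In taPVAT, Piezo2, the touch channel, had its highest levels in lymphatic endothelial and fibroblast nuclei. In lymphatic endothelial nuclei it stood at 172 and 364 CPM in the taPVAT libraries (147 and 39 UMIs, from 258 and 44 nuclei). BAT gave only 11 and 13 such nuclei, under the 20 set as a minimum, and these held 5 Piezo2 UMIs each, or 149 and 112 CPM with exact 95% Poisson intervals of 48.4 to 348 and 36.4 to 262. The wide BAT intervals overlapped those of both taPVAT libraries (146 to 203 and 259 to 497), so no tissue difference was detectable in these nuclei at this depth.

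Next in taPVAT came nuclei of fibroblasts, the cells that build connective tissue, with the libraries of the tissues far apart. Piezo2 stood there at 56.0 CPM (249 UMIs, interval 49.2 to 63.4) and 64.2 CPM (99 UMIs, 52.2 to 78.2) in taPVAT. In BAT it stood at 1.01 CPM (4 UMIs, 0.274 to 2.58) and at 0 CPM (715 nuclei, 0 UMIs, upper end 1.70). The 2 taPVAT libraries agreed within counting error, and both lay far above both BAT libraries. In taPVAT the fibroblast intervals overlapped neither the lymphatic endothelial ones above them nor the vascular endothelial ones below (3.27 and 4.02 CPM). Vascular endothelial and pericyte nuclei (2.47 and 3.12 CPM in taPVAT) were not separable by counting error, and adipocyte nuclei held 0.138 to 0.270 CPM in the 4 libraries.

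**Figure D3:**
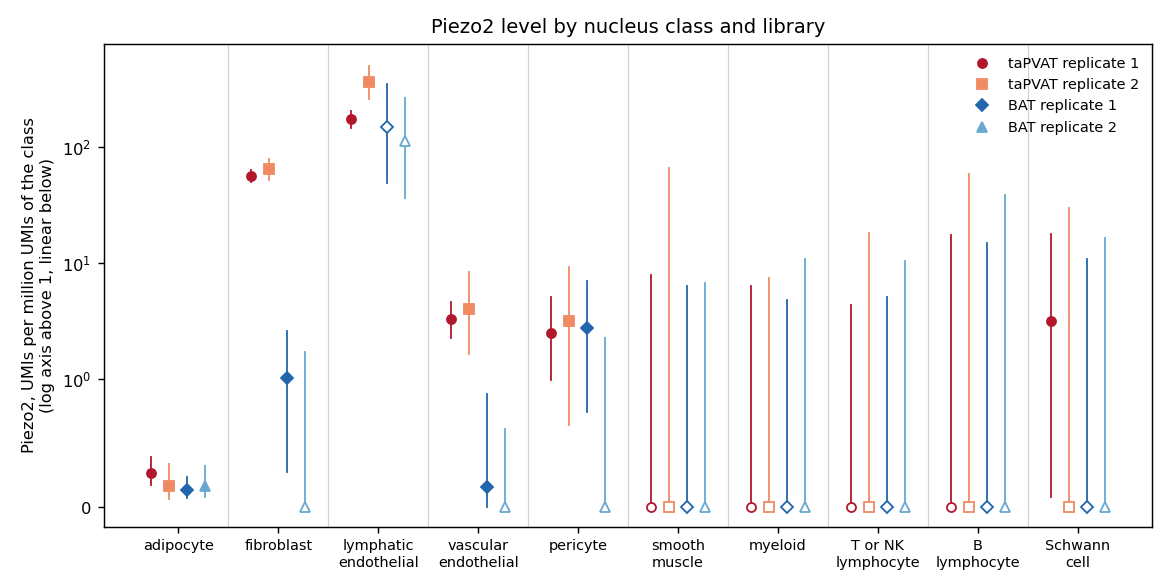
Piezo2 in CPM of each class (vertical, log axis above 1 and linear below) in each library, with exact 95% Poisson intervals; open symbols mark 0 UMIs or fewer than 20 nuclei. The 2 taPVAT libraries sit at 56.0 and 64.2 in fibroblast nuclei, the BAT libraries at 1.01 and 0, while lymphatic endothelial nuclei of all 4 libraries lie at 112 to 364.

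Of all Piezo2 UMIs, fibroblast nuclei held 50.1% and 60.4% in taPVAT and lymphatic endothelial nuclei 29.6% and 23.8%. In BAT only 34 and 20 Piezo2 UMIs were counted over all nuclei, and fibroblast nuclei held 11.8% and 0% of them. After each nucleus was thinned to 1000 UMIs, 4.63% (Wilson 95% interval 3.63 to 5.88) and 5.28% (3.75 to 7.40) of taPVAT fibroblast nuclei had a Piezo2 UMI, and 8.03% and 7.24% without thinning. The same share was 0.0862% in BAT replicate 1 and 0 of 690 nuclei in BAT replicate 2, which allows up to 0.435% (3 counts of 690; Wilson upper end 0.554%). Thinning left out 72 and 7 taPVAT and 28 and 25 BAT fibroblast nuclei. Thinned adipocyte nuclei, of higher median depth (2742.5 to 4847 UMIs against 1977 to 2225), had a Piezo2 UMI in 0.0194% to 0.0453%. The fibroblast shares in taPVAT lay above these.

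Within the fibroblast class, Piezo2 followed markers of the progenitor-like fibroblasts that lie in the outer connective tissue of vessels and fat (Pi16, Dpp4, Sema3c, Cd55, Anxa3, Ackr3). The make-up of the class itself moved with the tissue: 820 of 1433 and 271 of 594 nuclei in taPVAT had at least 1 UMI of these markers, and 337 of 1188 and 233 of 715 in BAT. Nuclei with at least 1 UMI of these stood at 75.9 CPM (interval 66.0 to 86.8) in taPVAT replicate 1, and nuclei with none at 22.3 CPM (15.7 to 30.8). In taPVAT replicate 2 the values were 114 CPM (91.2 to 140) and 14.3 CPM (7.16 to 25.6). The intervals did not overlap in either library. They treat each UMI as independent, whereas the 212 and 88 UMIs in nuclei with a marker lay in 92 and 35 nuclei, so they are likely too narrow. Nuclei with a marker UMI were deeper (median 2405.5 against 1948 UMIs, and 2136 against 2081), which the CPM scale divides out only on average. Nuclei with Pi16 or Dpp4 stood at 73.3 and 150 CPM, the rest at 47.9 and 27.0 CPM. A second list held other fibroblast markers (Col15a1, Fmo2, Icam1, Penk, Gdf10, Vit). In taPVAT, nuclei with markers of both lists stood at 80.7 and 134 CPM, and with progenitor markers only at 73.7 and 93.3 CPM. Nuclei with other markers only stood at 17.1 and 24.9 CPM, and with neither at 26.2 and 2.73 CPM. Those with both were also the deepest (median 2815.5 and 2727 UMIs). All 4 UMIs of BAT replicate 1 were in 2 of its 337 nuclei with a progenitor marker (2.70 CPM), and the 233 such nuclei of BAT replicate 2 held none. No taPVAT or BAT fibroblast nucleus had more than 13 Piezo2 UMIs.

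Markers of other classes moved with the fibroblast values as follows. The 8 lymphatic endothelial markers summed to 33.5 and 22.1 CPM in taPVAT fibroblast nuclei and to 4.78 and 12.5 CPM in BAT fibroblast nuclei. That is 0.792% and 0.135% of their level in taPVAT lymphatic endothelial nuclei. Piezo2 in the same fibroblast nuclei was 32.5% and 17.7% of its lymphatic endothelial level. These markers set the classes and Piezo2 did not, so the gate itself helps keep the marker percents low, and the percents are not a like comparison. Prox1, the transcription factor that defines lymphatic endothelium, had 1 UMI in each taPVAT and 0 and 2 UMIs in the BAT fibroblast sums. Ccl21, a chemokine of lymphatic vessels, did move with the tissue, at 71 and 16 UMIs (16.0 and 10.4 CPM) in taPVAT and 2 and 2 UMIs (0.504 and 0.924 CPM) in BAT. Mmrn1 had 13 and 2 UMIs in taPVAT and 0 and 1 in BAT, and Flt4 had 6 and 0 in taPVAT and 1 and 5 in BAT. Without the nuclei that held any lymphatic marker UMI (an alternative chosen after seeing the data), Piezo2 in fibroblast nuclei stood at 53.5, 65.7, 1.02 and 0 CPM in taPVAT replicates 1 and 2 and BAT replicates 1 and 2. Mesothelial markers, of the layer that lines the chest cavity, also summed higher in taPVAT fibroblast nuclei (352 and 254 CPM, against 71.8 and 56.3 CPM in BAT). Their sum was higher in taPVAT adipocyte nuclei too (169 and 98.4 CPM, against 56.2 and 56.5 CPM in BAT). Among these markers Gpm6a stood at 146 CPM in nuclei with no other mesothelial marker, so the sum is not specific to mesothelial RNA. Mesothelial nuclei themselves held 0 and 2 Piezo2 UMIs.

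Averaged over tissues, Piezo2 was higher than in adipocyte nuclei in fibroblast nuclei by 4.77 ± 0.82 (log2, adjusted p = 4.12e-05, edgeR) and in pericyte nuclei by 3.14 ± 0.73 (adjusted p = 0.00161). The fibroblast average hides the tissues: BAT had 4 and 0 UMIs. Both calls were lost with DESeq2 (4.71 and 3.24) and without BAT replicate 1 (2.00 in fibroblast and -0.22 in pericyte nuclei), where the remaining BAT library has 0 Piezo2 UMIs in both classes. In taPVAT pericyte nuclei, Piezo2 reached 4.41% and 4.86% of its fibroblast level, below the 10.9% and 8.64% that the 9 fibroblast markers reached there. Against lymphatic endothelial nuclei it stood at 1.43% and 0.858% in pericyte nuclei, above the 0.617% and 0.166% of the lymphatic markers. In vascular endothelial nuclei it was 1.89% and 1.11% of the lymphatic endothelial level, against 1.12% and 0.387% for the lymphatic markers. The markers set the classes, so the gate helps keep their percents in other classes low, which does not hold for Piezo2. BAT differed: in replicate 1, pericyte nuclei lay above fibroblast nuclei, with 4 Piezo2 UMIs among 1466795 UMIs against 4 among 3970992. Fibroblast markers stood at 12.2% of their own level in those pericyte nuclei. BAT replicate 2 held 0 Piezo2 UMIs in both classes. Smooth muscle, myeloid, T or NK and B lymphocyte nuclei had no Piezo2 UMI in any library, and Schwann cell nuclei had 1, in taPVAT replicate 1.

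Piezo2's pattern over the 40 sums was most like that of Sema3a (r = 0.87), Sema3d (0.82), Ccl21 (0.79), Mmrn1 (0.76) and Apba2 (0.76). Sema3a and Sema3d encode secreted guidance cues, and Ccl21 and Mmrn1 were among the lymphatic endothelial markers.

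Among the Trp channels, Trpc6, a calcium channel opened by diacylglycerol and known in vascular muscle, marked mural and myeloid nuclei. In smooth muscle nuclei it stood at 57.1 and 194 CPM in taPVAT (27 and 11 UMIs, the latter from 21 nuclei) and at 27.4 and 12.6 CPM in BAT. In pericyte nuclei, the contractile cells of small vessels, it stood at 18.7 and 17.7 CPM in taPVAT and 39.5 and 24.9 CPM in BAT. Both classes lay above adipocyte nuclei, at 0.233 to 0.564 CPM, in all 4 libraries. Myeloid nuclei held 20.5 and 61.9 CPM in taPVAT and 30.7 and 23.3 CPM in BAT. The differences from adipocyte nuclei were 6.66 ± 0.48 (adjusted p = 2.62e-12, edgeR) in smooth muscle, 5.91 ± 0.39 (adjusted p = 2.74e-13) in pericyte and 6.18 ± 0.44 (adjusted p = 1.85e-12) in myeloid nuclei. All 3 calls held under every alternative in which the class could be fitted.

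Trpv2, a channel found in macrophages and muscle, overlapped with Trpc6. Pericyte nuclei held 12.7 and 28.1 CPM in taPVAT and 16.4 and 17.0 CPM in BAT, against 0.381 to 0.630 CPM in adipocyte nuclei. It was higher than in adipocyte nuclei by 5.02 ± 0.40 (adjusted p = 9.05e-12, edgeR) in pericyte, 4.30 ± 0.54 in myeloid and 3.94 ± 0.64 in T or NK lymphocyte nuclei, and these calls held under every alternative that could be fitted. The counts behind them were small: 2 to 14 Trpv2 UMIs in myeloid and 3 to 6 in T or NK lymphocyte nuclei of a library. Its call in smooth muscle nuclei (4.74 ± 0.62) was lost without BAT replicate 1 (3.40). Its call in fibroblast nuclei (1.81 ± 0.54) was lost without taPVAT replicate 1 (1.93), taPVAT replicate 2 (1.69) or BAT replicate 2 (1.49). Trpv2 stood there at 0.899 to 5.08 CPM, and pericyte markers at 11.9% to 14.7% of their level in pericyte nuclei. The part of pericyte RNA in this call was not tested.

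Trpv4, which opens on cell swelling and mediates endothelial calcium entry, was higher in vascular endothelial and myeloid nuclei. Endothelial nuclei held 11.6 and 31.0 CPM in taPVAT and 8.53 and 19.7 CPM in BAT. Myeloid nuclei held 17.1 and 39.9 CPM in taPVAT and 19.2 and 14.6 CPM in BAT. Adipocyte nuclei held 4.45 and 5.20 CPM in taPVAT and 0.900 and 3.03 CPM in BAT, below both classes in each library. The differences were 2.31 ± 0.28 (adjusted p = 5.00e-08, edgeR) for vascular endothelial and 2.76 ± 0.37 (adjusted p = 6.77e-07) for myeloid nuclei, and both held under every alternative that could be fitted. Although lower per UMI, adipocyte nuclei held 46.0% to 66.1% of all Trpv4 UMIs, below their share of nuclei (70.4% to 73.8%).

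Trpc1, which joins other Trpc subunits in mixed channels, was spread over all classes. It stood in adipocyte nuclei at 111 and 79.2 CPM in taPVAT and 175 and 66.4 CPM in BAT, and in pericyte nuclei at 103 and 94.6 CPM and 162 and 93.1 CPM. It was above the median adipocyte marker in all 4 libraries of fibroblast, pericyte and smooth muscle nuclei, and in none of myeloid nuclei. Trpc1 was lower than in adipocyte nuclei by -1.01 ± 0.19 (adjusted p = 8.27e-05, edgeR) in myeloid and -0.62 ± 0.15 in vascular endothelial nuclei under every alternative that could be fitted. Lower calls in T or NK lymphocyte (-0.86 ± 0.19), Schwann cell (-0.69 ± 0.22) and fibroblast (-0.40 ± 0.15) nuclei were each lost without BAT replicate 1 (-0.66, -0.51 and -0.34). The latter pair were also lost without taPVAT replicate 2 (-0.58 and -0.31) and with DESeq2 (-0.47 and -0.23), the Schwann cell call with Leiden clusters (-0.51) and the fibroblast call without BAT replicate 2 (-0.41) and with at least 1000 genes per nucleus (-0.29).

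**Figure D4:**
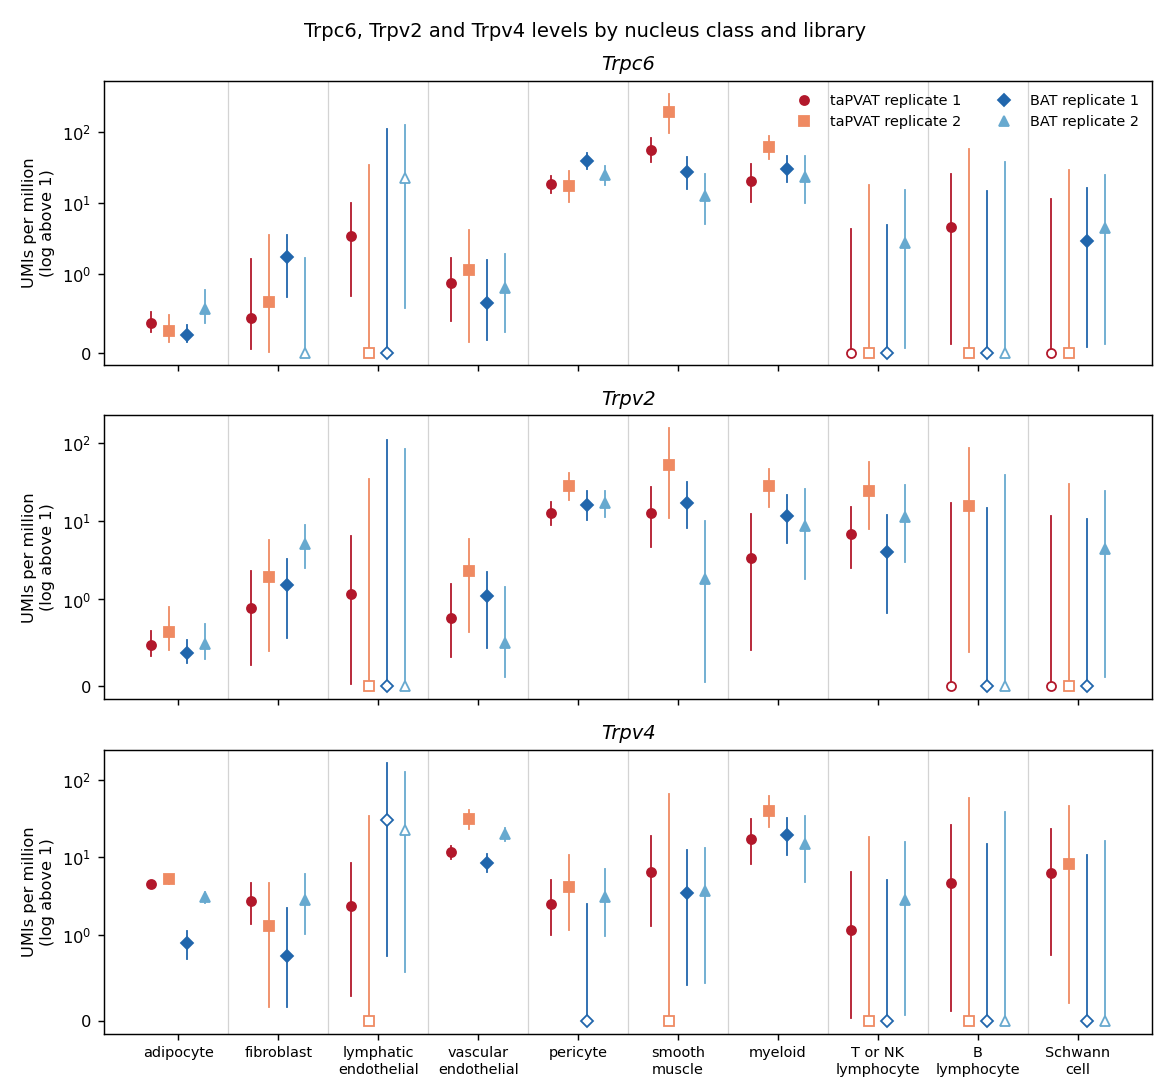
Trpc6, Trpv2 and Trpv4 in CPM of each class (vertical, log axis above 1 and linear below) by library, with exact 95% Poisson intervals; open symbols mark 0 UMIs or fewer than 20 nuclei. Trpc6 lies at 12.6 to 194 in pericyte, smooth muscle and myeloid nuclei and at 0.233 to 0.564 in adipocyte nuclei.

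Pkd1 and Pkd2 encode polycystin-1, a large receptor-like protein, and polycystin-2, the channel subunit it binds; mutations in either cause polycystic kidney disease, which also affects vessels. Both genes were called higher than in adipocyte nuclei in fibroblast, vascular endothelial, pericyte and smooth muscle nuclei. Since these partners shared 4 classes (Pkd1 was also called in Schwann cell nuclei), the 200 bases before each gene's start are shown, 5′ to 3′ on the gene's strand, from RefSeq on GRCr8 (Pkd1 at chr10:14078479-14078678, plus strand; Pkd2 at chr14:5585141-5585340, minus strand). Capitals mark the GC box, GGGCGG or its reverse complement CCGCCC, searched on both strands; the capitals show 4 in Pkd1 and 1 in Pkd2.
Pkd1: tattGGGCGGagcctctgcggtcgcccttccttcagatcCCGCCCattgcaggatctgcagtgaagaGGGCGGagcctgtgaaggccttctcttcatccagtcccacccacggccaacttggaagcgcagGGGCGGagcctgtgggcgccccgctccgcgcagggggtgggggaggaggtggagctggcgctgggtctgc
Pkd2: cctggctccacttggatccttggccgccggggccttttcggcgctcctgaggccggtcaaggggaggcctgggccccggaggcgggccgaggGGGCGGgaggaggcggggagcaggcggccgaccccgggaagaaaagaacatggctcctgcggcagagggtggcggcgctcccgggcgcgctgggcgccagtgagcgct
A GC box stood in 28.6% of 33469 RefSeq promoters cut the same way. These windows are 68.0% and 75.5% G or C, the matches do not overlap each other, and they are letters in a window, not measured binding sites. Of the 10 genes, 7 matched the promoter table, and 5 of these held a GC box (Piezo2, Trpv4 and Tmem63a besides), so the motif is not particular to this pair.

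Pkd1 stood in fibroblast nuclei at 73.3 and 135 CPM in taPVAT and 80.8 and 60.0 CPM in BAT, against 21.2 and 13.9 CPM and 26.9 and 15.5 CPM in adipocyte nuclei. Pericyte nuclei held 68.1 and 94.6 CPM in taPVAT and 105 and 74.8 CPM in BAT. Every fibroblast and pericyte value exceeded every adipocyte value. The Pkd1 differences were 2.03 ± 0.19 (adjusted p = 1.53e-10, edgeR) in pericyte, 1.96 ± 0.19 in fibroblast, 1.96 ± 0.25 in smooth muscle and 1.33 ± 0.18 in vascular endothelial nuclei. These 4 calls held under every alternative that could be fitted. A smaller one in Schwann cell nuclei (0.90 ± 0.32) was lost without taPVAT replicate 1 (0.79), BAT replicate 1 (0.82) or BAT replicate 2 (0.89).

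Pkd2 was highest against adipocyte nuclei in smooth muscle nuclei, at 78.3 and 159 CPM in taPVAT and 141 and 116 CPM in BAT. Adipocyte nuclei held 30.5 and 19.6 CPM in taPVAT and 26.5 and 17.1 CPM in BAT. The groups did not overlap, and the difference was 2.10 ± 0.20 (adjusted p = 6.61e-10, edgeR). Fibroblast nuclei were higher by 1.40 ± 0.16 and pericyte nuclei by 1.13 ± 0.17, also under every alternative that could be fitted. The call in vascular endothelial nuclei (0.71 ± 0.16) was lost without BAT replicate 2 (0.64).

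Lymphatic endothelial and mesothelial nuclei had enough nuclei in taPVAT alone and entered no test. Pkd1 stood at 49.2 and 83.9 CPM in lymphatic endothelial and 59.9 and 117 CPM in mesothelial nuclei, above its adipocyte level (21.2 and 13.9 CPM) in both libraries. Pkd2 stood at 44.6 and 65.3 CPM in lymphatic endothelial and 66.5 and 52.0 CPM in mesothelial nuclei, also above the adipocyte level in both libraries. Trpc6, Trpv2 and Trpv4 had 0 to 3 UMIs in either class, so their levels there cannot be read at this depth.

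Tmem63a and Tmem63b, relatives within 1 channel family, differed in their classes. Tmem63a held 8.02 and 12.6 CPM in taPVAT and 7.26 and 10.8 CPM in BAT vascular endothelial nuclei, against 4.11 and 1.98 CPM and 5.12 and 2.93 CPM in adipocyte nuclei. It was higher there by 1.32 ± 0.27 (adjusted p = 0.000159, edgeR), a call that held under every alternative. Calls for Tmem63a in myeloid (1.39 ± 0.43) and Schwann cell (1.66 ± 0.55) nuclei rested on at most 8 UMIs a library. The myeloid call was lost without BAT replicate 1 (1.62), taPVAT replicate 2 (1.15) or BAT replicate 2 (1.24) or with at least 1000 genes per nucleus (1.23), and the Schwann cell call without taPVAT replicate 1 (1.95), BAT replicate 1 or taPVAT replicate 2 (1.41). Without BAT replicate 1 the remaining BAT library has 0 Tmem63a UMIs in Schwann cell nuclei, so that fit gives no measured difference.

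Tmem63b was spread more evenly, at 43.4 and 37.2 CPM in taPVAT and 54.2 and 40.5 CPM in BAT adipocyte nuclei. It was lower in fibroblast (-0.41 ± 0.16), vascular endothelial (-0.42 ± 0.15) and myeloid (-0.59 ± 0.20) nuclei. Each of these 3 calls was lost without BAT replicate 1 (-0.38, -0.45 and -0.55), without taPVAT replicate 2 (-0.25, -0.28 and -0.58) and without BAT replicate 2 (-0.41, -0.38 and -0.66), and with DESeq2 (-0.24, -0.27 and -0.43). The fibroblast and vascular endothelial calls were also lost with no filter on low counts (-0.41 and -0.43), the fibroblast one with doublets kept (-0.32) and the endothelial one with Leiden clusters (-0.59). In fibroblast and vascular endothelial nuclei Tmem63b was nevertheless above the median adipocyte marker in 4 of 4 libraries, at 61.0% to 100% and 72.5% to 98.5% of its adipocyte level.

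Between the tissues, no channel gene was called in any of 7 main fits (all nuclei together, and adipocyte, fibroblast, vascular endothelial, pericyte, myeloid, and T or NK lymphocyte nuclei). These fits held no term for replicate number. In edgeR's test 0% of genes were called in each fit, out of 6871 to 16625 tested. At an unadjusted p under 0.05 the fits held 63 to 473 genes, and DESeq2 called 0 to 98 per fit. DESeq2's calls held 1 channel gene over all nuclei and 1 in fibroblast nuclei. With a block for replicate number, 2 to 386 genes were called per fit. These held Piezo2 over all nuclei and in fibroblast and vascular endothelial nuclei, and Trpv4 in adipocyte nuclei. What a number shares is not stated, so the block was not the main fit. Over the 7 fits, 53 gene values could be tested, and in 11 of them the 2 taPVAT libraries did not overlap the 2 BAT libraries, 6 with taPVAT above and 5 below. Over all genes and fits, 11.7% of 78140 values lay apart with taPVAT above and 10.5% with taPVAT below, so the channel genes' count is near that background. Those above were Piezo2 in fibroblast and vascular endothelial nuclei and over all nuclei, Trpv4 in adipocyte nuclei and over all nuclei, and Pkd2 in pericyte nuclei. Those below were Tmem63b in fibroblast, myeloid and pericyte nuclei, Pkd1 in myeloid nuclei and Trpc6 in pericyte nuclei.

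Piezo2 was the gene with the widest gap. In fibroblast nuclei (56.0 and 64.2 against 1.01 and 0 CPM) its log2 fold change of taPVAT over BAT was 6.46 ± 0.63, with an adjusted p of 0.0687 (edgeR) over 10965 genes, above the threshold of 0.05. Within replicate number 1 the levels were 56.0 against 1.01 CPM and within number 2 they were 64.2 against 0 CPM, so taPVAT was higher in both. This gene passed the count filter there on its taPVAT counts, BAT having 4 and 0 UMIs. Without BAT replicate 1 the remaining BAT library has 0 Piezo2 UMIs, so that fit gives no measured fold. Over the other 10 alternatives the log2 fold change ran from 5.86 to 6.55 and passed in 7. It did not pass without taPVAT replicate 2 (6.37, adjusted p = 0.132), with doublets kept (6.55, adjusted p = 0.0551) or without nuclei holding a lymphatic marker (6.41, adjusted p = 0.0631). It did pass without taPVAT replicate 1 (6.54, adjusted p = 0.0200) or BAT replicate 2 (5.86, adjusted p = 0.00140).

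The fibroblast difference was set against that in other classes in 1 joint fit. The Piezo2 tissue difference in fibroblast nuclei exceeded that in adipocyte nuclei by 6.05 ± 0.97 (log2, adjusted p = 0.00487, edgeR), 1 of 16 genes called (0.145% of 11036). As in the fibroblast fit, the gene entered chiefly through its taPVAT counts. That call was lost with DESeq2 (6.64 ± 6.74, adjusted p = 0.999739), in nuclei with at least 1000 genes (5.45, adjusted p = 0.184) and without BAT replicate 2 (5.22, adjusted p = 0.0696). Against vascular endothelial nuclei the excess was 1.42 ± 2.37 and was not called (3 genes were, 0.0272%); Piezo2 there was 3.27 and 4.02 CPM in taPVAT against 0.158 and 0 CPM in BAT. Against pericyte nuclei, a contrast added after seeing the data, the excess was 5.62 ± 1.50 (adjusted p = 0.429, edgeR, with 7 genes called, 0.0634%). Piezo2 there had 7 and 3 UMIs in taPVAT against 4 and 0 in BAT. The excess was called with no filter on low counts (5.61, adjusted p = 0.0190, edgeR). Against myeloid nuclei and against mural nuclei (pericyte and smooth muscle) it could not be fitted, since myeloid and smooth muscle nuclei held no Piezo2 UMI.

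**Figure D5:**
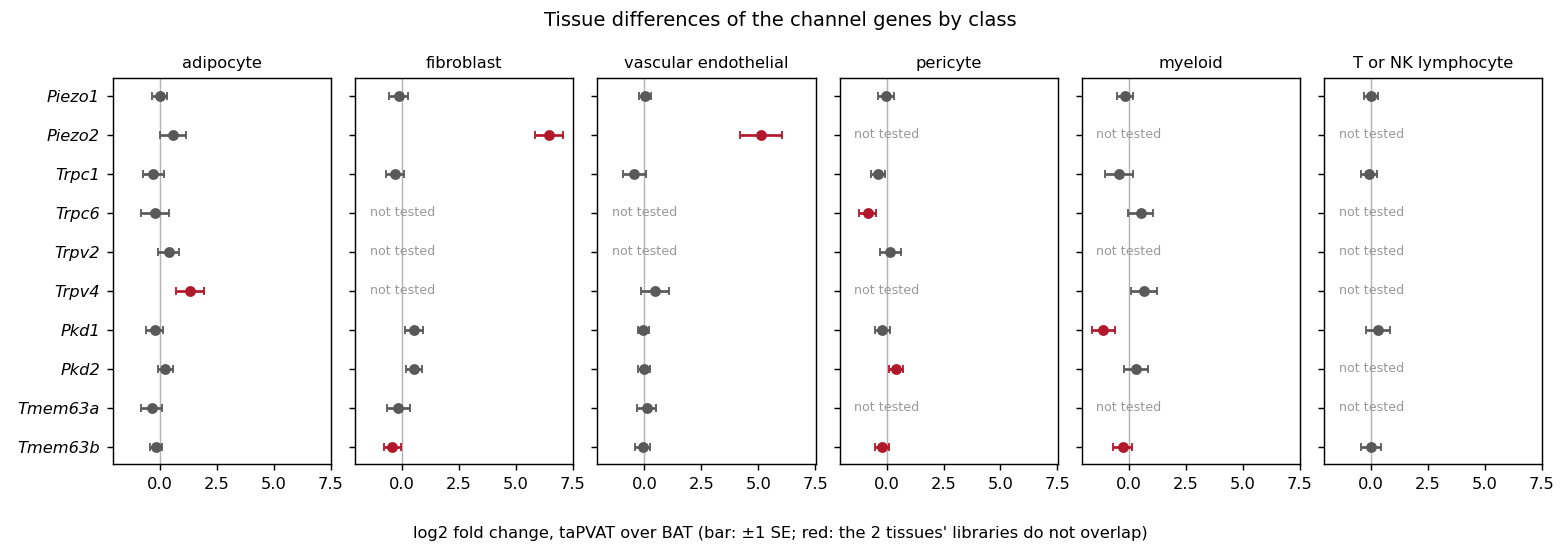
Log2 fold change of taPVAT over BAT (horizontal, bars ±1 SE) of the channel genes in 6 classes; red marks genes whose 2 taPVAT libraries do not overlap the 2 BAT libraries, and "not tested" marks genes under the count filter. Piezo2 in fibroblast nuclei lies at 6.46, and the 6 other genes tested there lie between -0.43 and 0.52.

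The other channel genes lay much closer together. Trpv4 in adipocyte nuclei (4.45 and 5.20 CPM in taPVAT, 0.900 and 3.03 CPM in BAT) did not overlap between tissues, with a log2 fold change of 1.33 ± 0.63 (adjusted p = 0.999991, edgeR). The fit with a replicate block did call Trpv4 there, 1 of 329 genes called, and taPVAT was higher within each number. Trpc6 in pericyte nuclei (18.7 and 17.7 against 39.5 and 24.9 CPM) did not overlap either, at -0.84 ± 0.36 (adjusted p = 0.999974). Pkd1 in myeloid nuclei (20.5 and 12.0 against 32.0 and 40.8 CPM) gave -1.12 ± 0.51, and Pkd2 in pericyte nuclei (58.9 and 69.7 against 57.9 and 37.1 CPM) gave 0.40 ± 0.32. Piezo1 gave a log2 fold change of -0.00308 ± 0.33 in adipocyte, -0.16 ± 0.44 in fibroblast and 0.02 ± 0.26 in vascular endothelial nuclei; its 2 libraries within a tissue differed by more than the tissues did. In fibroblast nuclei the other 6 tested genes ran from -0.43 ± 0.36 (Tmem63b) to 0.52 ± 0.38 (Pkd1). Trpv2, Trpv4 and Trpc6 were under the count filter there.

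To set these genes among related ones, 3 wider lists were read from the same fits: 25 other Trp superfamily channels, 20 other force-sensitive channels and channel partners, and 17 calcium and mechanical response genes. None was called between tissues in the main fits, where 0% of all genes were called, so this is no result about the lists. The lists were not read from the alternative fits. Of the listed genes 8, 7 and 16 were tested in fibroblast nuclei, with median log2 fold changes of -0.13, -0.03 and 0.05 beside -0.01 over all genes. In fibroblast nuclei the 3 smallest p-values belonged to Trpm3, Ccn2 and Asic2. Trpm3, a heat- and steroid-activated channel, stood at 193 and 558 CPM in taPVAT and at 29.7 and 41.6 CPM in BAT, which gave 3.35 ± 0.57 (adjusted p = 0.184, edgeR). Ccn2, a secreted matrix protein induced by stretch, stood at 45.6 and 24.0 CPM against 1.76 and 10.6 CPM (2.59 ± 0.76, adjusted p = 0.675). Neither gene's libraries overlapped between tissues.

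Asic2, an acid-sensing channel subunit of neurons, was among the 3 smallest p-values in every fit but that of myeloid nuclei. In adipocyte nuclei it stood at 105 and 27.1 CPM in taPVAT and at 1.59 and 2.07 CPM in BAT (5.18 ± 0.71, adjusted p = 0.472, edgeR), and in fibroblast nuclei at 66.1 and 29.9 against 21.4 and 20.8 CPM (1.17 ± 0.43, adjusted p = 0.958). In adipocyte nuclei the taPVAT libraries differed widely from each other, and both exceeded both BAT libraries. Kcnk2, a stretch-gated potassium channel, was next in adipocyte nuclei, at 3.93 and 1.96 against 1.01 and 1.09 CPM (1.52 ± 0.45, adjusted p = 0.999991), followed by Tmem150c (-1.44 ± 0.70, at most 0.677 CPM). In vascular endothelial nuclei Ccn2 (25.1 and 36.8 against 6.79 and 5.14 CPM, 2.32 ± 0.35) came with Asic2 (4.25 ± 1.02) and Tmem63c (-0.69 ± 0.38). Pericyte nuclei had Asic2 (1.59 ± 0.42), Trpc4 (1.20 ± 0.49) and Ccn1 (-0.82 ± 0.46). T or NK lymphocyte nuclei had Asic2 (5.90 ± 1.04), Wwtr1 (-1.09 ± 0.67) and Nfatc2 (-0.49 ± 0.44), and myeloid nuclei Ppp3cb (0.39 ± 0.36), Nfatc1 (0.35 ± 0.33) and Tmem120a (-0.37 ± 0.48). Against adipocyte nuclei, tissues averaged, Asic2 was not called in T or NK lymphocyte (-0.75 ± 0.94) or vascular endothelial (-0.40 ± 0.33) nuclei. It was called higher in fibroblast (1.44 ± 0.29) and pericyte (2.24 ± 0.30) nuclei. The part of adipocyte RNA in the Asic2 tissue differences of other classes was not tested. Over all nuclei Asic2 (4.14 ± 0.69), Trpm3 (1.95 ± 0.43) and Kcnk2 (1.49 ± 0.43) led, with Trpm3 at 11.2 and 20.7 CPM in taPVAT and 3.41 and 4.95 CPM in BAT. In sums over all nuclei, a smaller share of a cell type and less RNA per nucleus cannot be told apart.

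Against adipocyte nuclei, the same lists had calls in both directions. In fibroblast nuclei 2 of 13 tested Trp channels were higher and 0 lower, 3 of 7 force-sensitive channels higher and 2 lower, and 5 of 16 response genes higher and 6 lower, beside 24.5% and 22.3% of all genes. In vascular endothelial nuclei the counts were 4 and 3, 3 and 2, and 5 and 4, beside 23.7% and 21.8%. In pericyte nuclei they were 3 and 0, 1 and 3, and 4 and 5, beside 17.9% and 17.7%. On lists this short, the shares called lie on both sides of the background. The medians of the lists in fibroblast nuclei, 0.11, 0.23 and 0.11 (log2), stood beside -0.03 for all genes.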

How the data were processed

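Nuclei of 2 taPVAT and 2 BAT libraries were profiled with the 10x 3′ v3.1 chemistry, per the labels' protocols. The deposited matrices hold raw UMI counts per gene and barcode, made with Cell Ranger 7.1.0 per the file headers and on Rnor_6.0 per the submitters' processing notes; how introns and strand were handled, and which barcodes were dropped, is not given in the sources used here. Without the strand setting, reads of overlapping or antisense genes cannot be told apart. Barcodes with at least 500 genes were kept, and doublets were removed with Scrublet (scanpy 1.11.5), which called 10.8%, 6.61% and 15.3% in taPVAT replicates 1 and 2 and BAT replicate 2. In BAT replicate 1 it called 0 barcodes and was judged to have failed, so the 18.5% with the highest scores were removed, scaled from the shares called elsewhere.

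A nucleus joined a class when at least 3 distinct markers of that class were counted and their sum exceeded what its depth and the library's background would give (Poisson p under 0.0001). Adipocyte nuclei were those with at least 4 adipocyte markers and no such excess of another list, so nuclei of other classes with few counts may be among them. Markers not at least 5 times higher in nuclei with 3 other markers of their list than in nuclei with none were left out. The gate settings were set after the data were seen, and the members, lists and tests were chosen with earlier results of these data known. UMIs were summed per library and class and tested with edgeR 4.0.16 (quasi-likelihood, TMM, filterByExpr, R 4.3.3) at an adjusted p under 0.05: between tissues in classes with at least 50 nuclei in every library, and between classes in 1 joint fit with library as a term, in classes with at least 20. The test between tissues was checked on simulated fibroblast and adipocyte sums, which held no replicate-number effect and changed only well-counted genes. The joint fit and genes as sparse as Piezo2 in BAT were not simulated. Levels are CPM of a class with exact 95% Poisson intervals; intervals and the limit for a count of 0 (3 counts) cover counting error only. Fold changes of genes with few or 0 counts in 1 tissue depend on edgeR's prior count. All 10 genes were named in every comparison; of the wider lists, the 3 genes with the smallest p in a fit were named, and for Piezo1 and Piezo2 the 5 genes of highest correlation among those with a mean of at least 5 CPM. Alternatives were DESeq2 1.42.0, a replicate block, no low-count filter, at least 1000 genes per nucleus, Leiden clusters, no doublet removal and each library left out.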

Additional observations from a re-analysis of the deposited data

Results flagged for a closer look

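The taPVAT over BAT difference of Piezo2 in fibroblast nuclei exceeded that in adipocyte nuclei by 6.05 (log2, SE 0.97, adjusted p = 0.00487, edgeR), a difference between classes under the same contrast. The fibroblast levels were 56.0 and 64.2 CPM in taPVAT and 1.01 and 0 CPM in BAT, and the adipocyte levels 0.270 and 0.163 CPM in taPVAT and 0.138 and 0.169 CPM in BAT. BAT fibroblast nuclei held 4 and 0 Piezo2 UMIs, so the gene entered this fit through other sums, chiefly those of taPVAT (249 and 99 UMIs), and the size of the difference depends on the prior count. Both taPVAT libraries were higher than both BAT libraries in fibroblast nuclei, and the libraries overlapped in adipocyte nuclei. Without BAT replicate 1 the fit gives no measured fold, since the remaining BAT library has 0 Piezo2 UMIs in fibroblast nuclei; over the other 8 alternatives the difference passed the threshold in 5. The excess over vascular endothelial nuclei (1.42, SE 2.37), where both taPVAT libraries were also above both BAT libraries, was not called, nor was that over pericyte nuclei (5.62, SE 1.50, adjusted p = 0.429). Lymphatic and mesothelial marker sums were also higher in the taPVAT fibroblast nuclei, as they were in taPVAT adipocyte nuclei. The part of mesothelial RNA in the result was not tested.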

How the results depend on the processing

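With 2 libraries per tissue, counts of calls depended strongly on the test. Over the 7 tissue fits, edgeR called 0 genes and 0 channel genes, DESeq2 213 and 2, the fit with no low-count filter 388 and 3, nuclei with at least 1000 genes 3 and 1, and Leiden clusters (4 fits) 23 and 1; leaving out 1 library gave 12 to 235 genes and 0 to 2 channel genes. Of 507 uncalled tissue values under the alternatives, 77 changed sign. The 40 class calls became 24 with Leiden clusters and 26 with at least 1000 genes, where fewer classes could be fitted, and 25 to 38 with 1 library left out; 23 of the 40 were kept throughout. The calls against other classes (1) became 0 with DESeq2, 0 with at least 1000 genes, and 0 to 2 with 1 library left out, where the lone library is assumed to vary like the others. With no filter on low counts, Piezo2 was also called against pericyte nuclei (5.61), a contrast added after seeing the data.

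For Piezo2 in fibroblast nuclei the log2 fold change was 6.54 with DESeq2, 6.44 with no filter, 6.55 with Leiden clusters, 6.14 with at least 1000 genes and 5.86 to 10.3 with 1 library left out. The end at 10.3 is the fit without BAT replicate 1, where BAT has 0 Piezo2 UMIs, so it is set by the prior count and is no measured fold. Its excess over adipocyte nuclei was 6.64 with DESeq2, 5.45 with at least 1000 genes and 5.22 to 11.6 with 1 library left out, the end at 11.6 being that same fit. Its excess over vascular endothelial nuclei turned to -2.04 with at least 1000 genes, and the cause was not tested. With 1 library left out, Piezo2 in pericyte against adipocyte nuclei ran from -0.22 (without BAT replicate 1) to 3.80, and Tmem63a in Schwann cell nuclei from -2.70 (without BAT replicate 1) to 1.95; without BAT replicate 1 the remaining BAT library has 0 UMIs of either gene in that class, so these low ends are set by the prior count.

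The replicate numbers are not known to pair the libraries. Same-numbered libraries deviated together from their tissue means (correlation 0.837 over all nuclei, 0.865 in adipocyte and 0.518 in fibroblast nuclei), from 2 pairs only. With the replicate block, 1044 genes and 4 channel genes were called over the 7 fits, and Piezo2 in fibroblast nuclei gave 6.42. The block also called Piezo2 over all nuclei (3.59) and in vascular endothelial nuclei (5.10), and Trpv4 in adipocyte nuclei (1.57). Vascular endothelial nuclei held 33 and 7 Piezo2 UMIs in taPVAT and 1 and 0 in BAT. The gene thus entered that fit through its taPVAT counts, and the 5.10 depends on the prior count. In the sum over all nuclei, level and class share cannot be told apart: lymphatic endothelial nuclei numbered 258 and 44 in taPVAT and 11 and 13 in BAT.

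Classes with few nuclei, such as 21 smooth muscle nuclei in taPVAT replicate 2, limit what can be seen: values there rest on a few UMIs. Leiden clustering gave no T or NK, B or myeloid class; its lymphatic endothelial cluster held Piezo2 at 129 and 147 CPM in taPVAT and 8.32 and 11.2 CPM in BAT, with 588 of its 930 nuclei gated as vascular endothelial above. Its make-up differed by tissue: it held 442 and 112 taPVAT and 139 and 237 BAT nuclei, against 258 and 44 taPVAT and 11 and 13 BAT nuclei gated as lymphatic endothelial, so these levels are not a comparison of lymphatic endothelial nuclei.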
